A study of Zea mays with 137 samples.

Results

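The gene px5 (peroxidase 5, Zm00004b030088) was followed through every aneuploid combination and every diploid control of a maize series, 1 gene of the 41448 listed. It was taken by its identifier and not by a filter on its values, but with earlier results of these data known. The tables place it on chromosome 6 of the W22 genome, from position 125549900 to 125551670, in the long arm (6L) and 65.8 Mb beyond the point at which the 6L genes began to follow the number of copies of that arm. No other listed locus overlapped it, and the nearest listed genes lay 133791 and 12001 bp away.

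Plant peroxidases of the secreted class are heme enzymes that use hydrogen peroxide to oxidize phenolic compounds, and as a family they are known for work in the cell wall, in the formation of lignin and in responses to wounding and pathogens. The family is large and its members are alike in sequence, so reads can be shared between copies, and such sharing was not tested for px5. Where the arm that carries a gene is gained or lost, a change of that gene is a cis effect, and a change caused by another arm is a trans effect. A gene that follows its own copies proportionally shows a dosage effect, and one that stays near the diploid level is said to be dosage compensated. A trans effect in which the level moves against the copies of the other arm is called an inverse effect.

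The plants were W22 maize grown in a greenhouse, and leaf RNA was sequenced at 45 days after depletion of ribosomal RNA. Translocations between a supernumerary B chromosome and a normal A chromosome (B-A translocations), which fail to separate at the second pollen mitosis, were used to give 1 (monosomy), 2, 3 (trisomy) or rarely 4 (tetrasomy) copies of an arm, and 2 arms were varied together in each of 9 pairs. There were 33 aneuploid combinations with 108 plants, and each pair had its own diploid control, with 29 plants in all. A combination held 1 to 5 plants and a control 2 to 4.

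In 3 pairs 1 of the arms was 6L, which gave 12 combinations. These were, for 4L+6L, monosomy 4L+monosomy 6L, trisomy 4L+monosomy 6L, trisomy 4L+trisomy 6L and trisomy 4L+tetrasomy 6L, and for 5L+6L and 6L+9S the 4 combinations of 1 and 3 copies of both arms. In the other 21 combinations, from 1L+3L, 1L+5S, 1S+9L, 3L+4L, 3L+5L and 4L+5L, px5 was present in 2 copies. The aneuploid plants carried translocation chromosomes. By the study's crossing scheme, monosomy came from sperm without the B-A chromosome of that arm. By its leaf collection record, translocation chromosomes were also in all 4 controls of 1L+3L, both controls of 6L+9S and 1 of the 4 controls of 5L+6L. There they were in a balanced form. One of the 4 plants labelled monosomy 1S+trisomy 9L stands in the study's karyotype list as the reverse combination. Each pair was a separate cross with its own collection, so the pair and its batch cannot be told apart.

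The values are the authors' means per group in FPKM (fragments scaled to transcript length and to the number of mapped fragments), with no value per plant, so no SD, depth or counting interval can be given and neighbors in any order of levels cannot be separated by a replicate error. FPKM is a relative measure, so a change in the total amount of mRNA does not show in it. The study reported a changed estimated transcriptome size in most combinations, so no level or ratio given here is a value per genome. Summed over genes, a group mean came to 570672 to 654278 FPKM. The median ratio to the diploid of the genes outside both varied arms lay between 0.824 and 1.17 (log2 from -0.28 to 0.23). Dividing by it turned the direction of px5 against its diploid in 1 combination, trisomy 1L+trisomy 5S. A photosystem II reaction center W gene (Zm00004b018833), a marker of green leaf, stood at 115 to 1425 FPKM in the combinations and at 601 to 1465 FPKM in the diploids. This gene is on chromosome 3, whose long arm was varied in some pairs, and its 115 FPKM was in monosomy 3L+trisomy 4L.

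px5 was an abundant transcript in leaf. It spanned 51.9 to 678 FPKM over the 33 combinations, a 13.1-fold range, and 132 to 476 FPKM over the 9 diploid means. In the diploids it ranked between 138 and 641 among the 18030 to 19254 genes at 1 FPKM or more. The bar chart of levels sets all 42 means side by side.

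**Figure D1:**
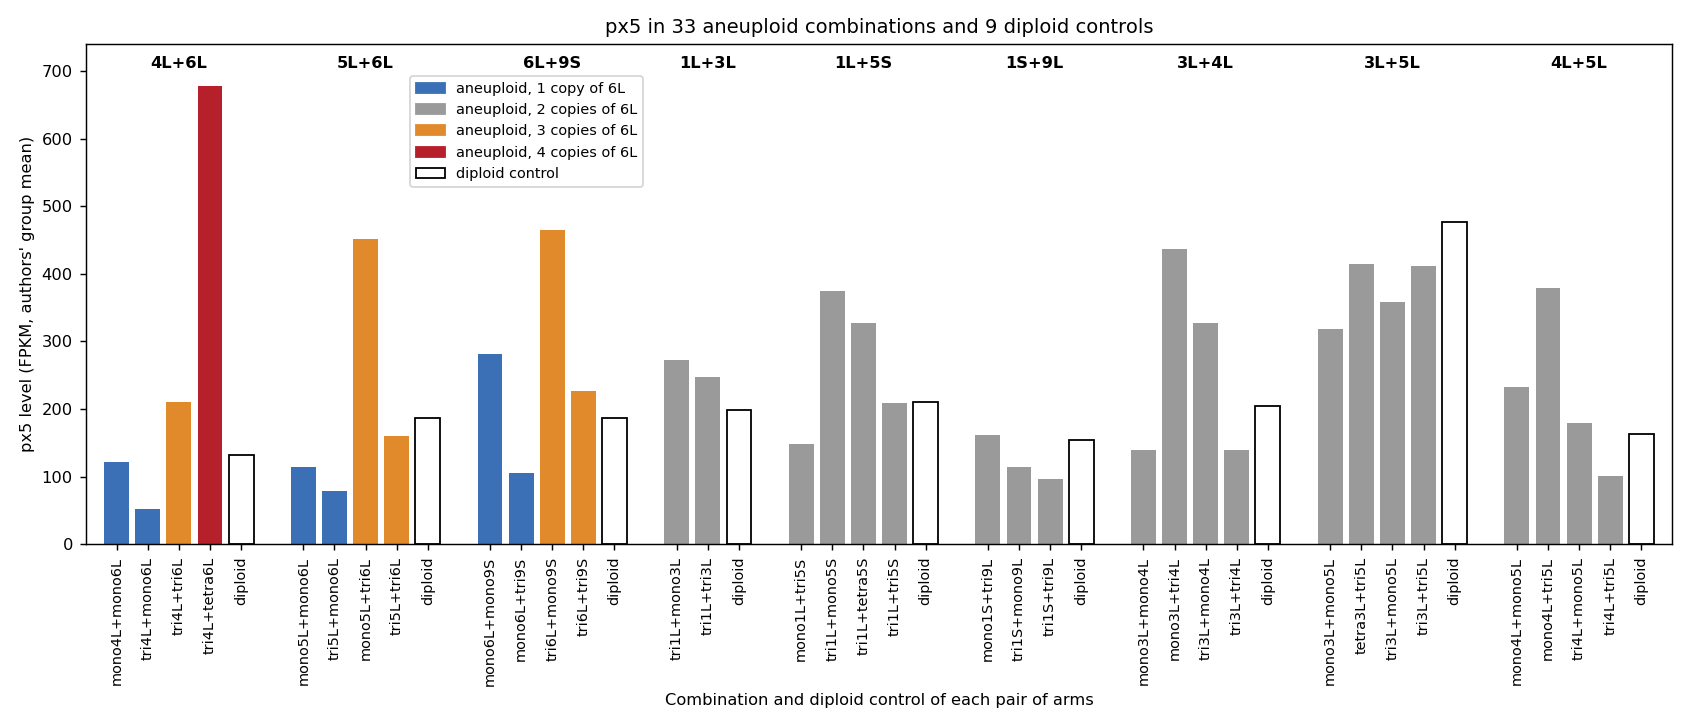
Bars give the authors' mean FPKM of px5 for each aneuploid combination (filled, colored by the copies of 6L) and for the diploid control at the right of each pair (open), on a linear axis from 0. The highest bar is trisomy 4L+tetrasomy 6L at 678 FPKM and the lowest is trisomy 4L+monosomy 6L at 51.9 FPKM, both in the pair 4L+6L.

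The first question was whether px5 followed the copies of its own arm. In 4L+6L, px5 had 121 FPKM in monosomy 4L+monosomy 6L and 51.9 FPKM in trisomy 4L+monosomy 6L, 210 FPKM in trisomy 4L+trisomy 6L and 678 FPKM in trisomy 4L+tetrasomy 6L, against 132 FPKM in the diploid control. With 4L held at 3 copies, px5 was thus higher at each step of 1, 3 and 4 copies of 6L. The tetrasomic mean was 3.23 times the trisomic one and 13.1 times the monosomic one, where the copies differ 4-fold. That tetrasomic group was 1 plant.

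In 5L+6L, px5 had 452 FPKM in monosomy 5L+trisomy 6L and 160 FPKM in trisomy 5L+trisomy 6L. The monosomic 6L combinations stood at 113 FPKM with monosomy 5L and 79.4 FPKM with trisomy 5L, and the diploid control at 187 FPKM. The trisomic and the monosomic 6L means did not overlap in this pair, although trisomy 5L+trisomy 6L lay below the diploid at a ratio of 0.858.

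In 6L+9S, px5 had 464 FPKM in trisomy 6L+monosomy 9S and 227 FPKM in trisomy 6L+trisomy 9S. The monosomic 6L combinations stood at 281 FPKM with monosomy 9S and 105 FPKM with trisomy 9S, and the diploid control at 186 FPKM. Here the groups overlapped, since monosomy 6L+monosomy 9S was above trisomy 6L+trisomy 9S and also above the diploid, at a ratio of 1.51 with 1 copy of px5.

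Averaged over the pairs on the log2 scale, px5 with 3 copies of 6L was 2.42-fold the level with 1 copy (log2 difference 1.27). The difference was 2.64-fold in 4L+6L, 2.84-fold in 5L+6L and 1.89-fold in 6L+9S, and 3 copies over 1 copy would be 3-fold by gene dosage alone. In 4L+6L the trisomic 6L combination had 3 copies of 4L, while the monosomic ones had 3 and 1 copies. The 2.64-fold there, and with it the average, thus mixes dosages of 4L. With 4L fixed at 3 copies the difference in that pair was 4.05-fold. A two-sided exact permutation of the 6L labels within each pair, over 11 combinations and 108 arrangements, gave p = 0.0463 (the smallest it allows is 0.00926). Adjusted over the 4 tests made here (Benjamini-Hochberg), p was 0.0833, which misses 0.05. With the tetrasomic group counted among the trisomic ones the difference was 1.56 on the log2 scale and the adjusted exact permutation p 0.0370. The test treats each group mean as 1 value, so its p measures the spread between combinations and not between plants.

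The same direction held in each of the 5 contrasts in which the other arm was fixed. px5 with 3 copies of 6L was 4.05-fold that with 1 copy when 4L was trisomic. It was 3.98-fold with monosomic 5L and 2.02-fold with trisomic 5L, and 1.65-fold with monosomic 9S and 2.17-fold with trisomic 9S.

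By copies, the ratio of px5 to its diploid ran from 0.393 to 1.51 in the 6 combinations with 1 copy (geometric mean 0.656), against medians of the 6L genes between 0.473 and 0.602. It ran from 0.858 to 2.50 in the 5 combinations with 3 copies (geometric mean 1.59), against medians between 1.35 and 1.66. It was 5.14 in the combination with 4 copies, where the 6L genes had a median of 2.06. At 1 copy the geometric mean of px5 was thus somewhat above the medians of its arm, but the median px5 ratio, 0.585, was inside their range. At 3 copies the geometric mean was inside their range. Single combinations lay far to both sides, as the plot against copies of 6L shows.

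**Figure D2:**
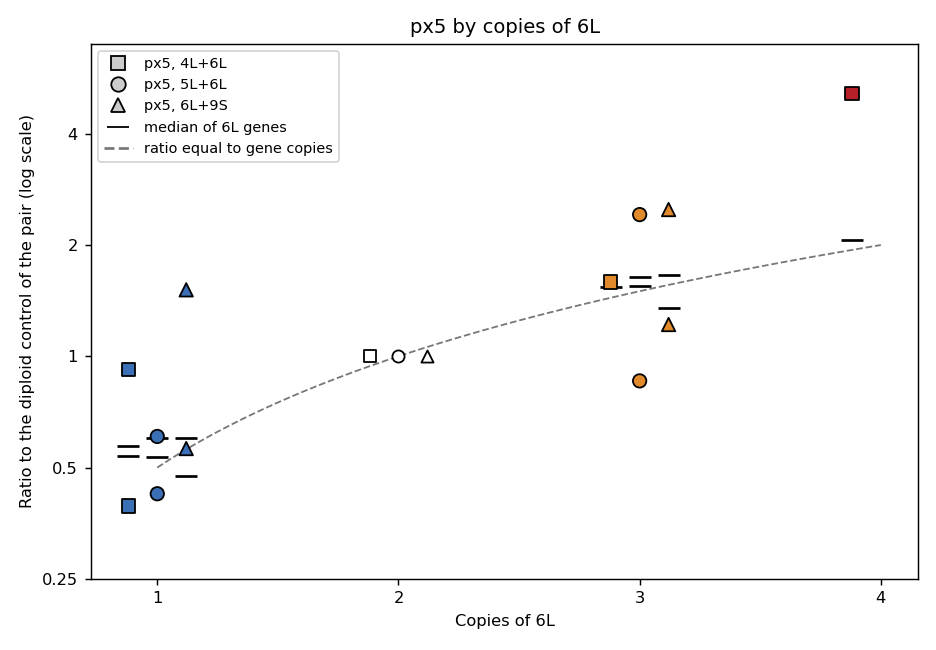
Points give the ratio of px5 to the diploid of its pair on a log axis against the copies of 6L, with the marker giving the pair, the short bars the median of the 6L genes in the same combination, and the dashed line a ratio equal to the gene copies. At 1 copy px5 runs from 0.393 to 1.51 and at 3 copies from 0.858 to 2.50, and the point at 4 copies, 1 plant, is 5.14.

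Among the 925 genes of 6L with at least 1 FPKM in every group mean, the same trisomic minus monosomic measure had a median of 1.48 on the log2 scale (2.79-fold), with the 10th and 90th percentiles at 0.84 and 1.98. px5, at 1.27, stood at percentile 29.2 of these. The measure mixes dosages of 4L in 4L+6L for all of these genes, px5 included. For trisomy 4L+tetrasomy 6L, 23 of the 925 genes, px5 included, were as high as px5 or higher.

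The genes beside px5 in the genome gave a local comparison. On its left, Zm00004b030086 had a trisomic over monosomic 6L difference of 2.60-fold, and on its right, Zm00004b030089 had 1.38-fold. Over the 10 nearest genes on each side with at least 1 FPKM in each diploid (chromosome 6, 124468005 to 127312867), the log2 difference ran from -0.94 to 1.88 with a median of 1.39. Their ratios in trisomy 4L+tetrasomy 6L ran from 0.348 to 4.10 with a median of 1.87, all below the 5.14 of px5.

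The second question was whether the other arm of the pair moved px5 when the copies of 6L were fixed. px5 was lower with 3 copies than with 1 copy of the other arm in 5 of 5 contrasts. With 6L trisomic it had 160 FPKM in trisomy 5L and 452 FPKM in monosomy 5L, and 227 FPKM in trisomy 9S and 464 FPKM in monosomy 9S. With 6L monosomic it had 79.4 FPKM in trisomy 5L and 113 FPKM in monosomy 5L, 105 FPKM in trisomy 9S and 281 FPKM in monosomy 9S, and 51.9 FPKM in trisomy 4L and 121 FPKM in monosomy 4L.

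The geometric mean ratio of 3 copies over 1 copy of the other arm was 0.454 (log2 difference -1.14, and -0.97 after dividing by the median of genes outside the varied arms). A two-sided exact sign-flip permutation over the 5 contrasts gave p = 0.0625, the smallest that its 32 sign patterns allow, so the design cannot reach 0.05 (adjusted p = 0.0833). The ratios of the single contrasts were 0.427 for 4L, 0.355 and 0.700 for 5L with 6L trisomic and monosomic, and 0.489 and 0.372 for 9S with 6L trisomic and monosomic.

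Most genes moved less with the other arm. Over the 925 genes of 6L the median of the same measure was -0.17, and over 12187 genes outside all arms varied in these 3 pairs it was -0.15. px5 stood at percentile 0.919 of the first set and 1.39 of the second. A lower value in 5 of 5 contrasts was itself common, seen in 204 of the 925 genes of 6L (22.1%) and in 20.4% of the 12187. In the 20 flanking genes the measure ran from -0.73 to 0.20, and 7 of them were lower in 5 of 5.

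The photosystem II W gene moved the other way in 4 of these 5 contrasts. With 6L trisomic it had 783 FPKM in trisomy 5L and 540 FPKM in monosomy 5L, and 1378 FPKM in trisomy 9S and 831 FPKM in monosomy 9S. With 6L monosomic it had 1039 FPKM in trisomy 5L and 773 FPKM in monosomy 5L, 1425 FPKM in trisomy 9S and 817 FPKM in monosomy 9S, but 841 FPKM in trisomy 4L and 947 FPKM in monosomy 4L. Whether the make-up of the leaf samples had a part in the px5 values was not tested, and in whole leaf fewer cells of a type and less RNA per cell cannot be told apart.

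**Figure D3:**
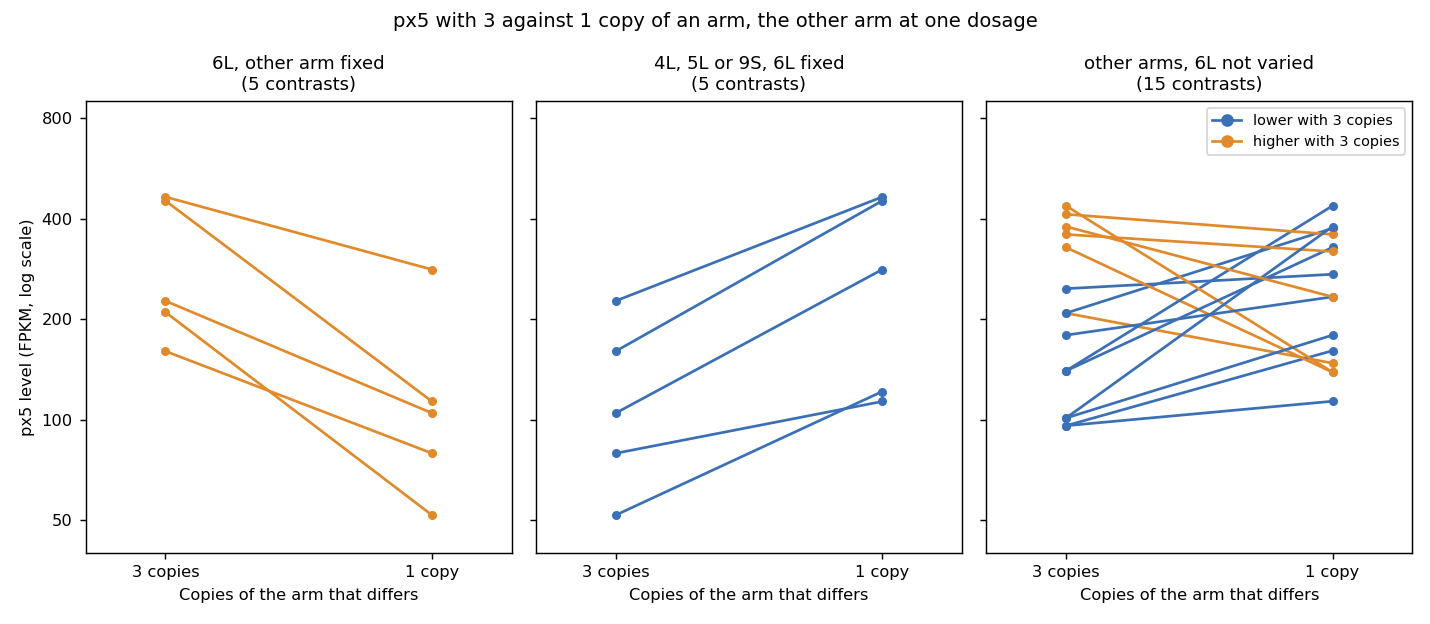
Each line joins the px5 level, in FPKM on a log axis, with 3 copies of an arm (left) and with 1 copy of the same arm (right) while the other arm of the pair stays at one dosage. In the left panel 6L differs and all 5 lines are higher with 3 copies, in the middle panel 4L, 5L or 9S differs and all 5 are lower with 3 copies, and in the right panel, with 6L not varied, 9 of 15 are lower.

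The third question was how px5 behaved when its own arm was not varied. In these 21 combinations, in all of which px5 had 2 copies, its ratio to the diploid ran from 0.619 to 2.31 with a median of 0.992, and 10 were above 1. The medians of the genes outside the varied arms ran from 0.824 to 1.08.

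In 4L+5L, px5 had 379 FPKM in monosomy 4L+trisomy 5L, 233 FPKM in monosomy 4L+monosomy 5L, 179 FPKM in trisomy 4L+monosomy 5L and 101 FPKM in trisomy 4L+trisomy 5L, against 164 FPKM in the diploid. This pair held both the highest and the lowest ratio of the 21, each in a group of 2 plants. Trisomic 4L was lower than monosomic 4L at either dosage of 5L, by ratios of 0.267 with trisomic 5L and 0.768 with monosomic 5L.

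In 3L+4L, px5 had 437 FPKM in monosomy 3L+trisomy 4L and 328 FPKM in trisomy 3L+monosomy 4L. Monosomy 3L+trisomy 4L was 2 plants, 1 of them with the mid-rib noted. Its photosystem II W gene, on chromosome 3, was at 0.191 of the diploid, the lowest ratio of that gene among the combinations. The double trisomy stood at 140 FPKM and the double monosomy at 139 FPKM, below the diploid at 205 FPKM. The combinations with opposite dosages of the arms were therefore both above the diploid and those with like dosages both below it.

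In 1L+5S, px5 had 374 FPKM in trisomy 1L+monosomy 5S, 327 FPKM in trisomy 1L+tetrasomy 5S (1 plant), 209 FPKM in trisomy 1L+trisomy 5S and 148 FPKM in monosomy 1L+trisomy 5S, against 210 FPKM in the diploid. In 1L+3L it had 272 FPKM in trisomy 1L+monosomy 3L and 247 FPKM in trisomy 1L+trisomy 3L, against 198 FPKM in the diploid. In 1S+9L it had 161 FPKM in monosomy 1S+trisomy 9L, 114 FPKM in trisomy 1S+monosomy 9L and 96.0 FPKM in trisomy 1S+trisomy 9L, against 155 FPKM in the diploid.

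In 3L+5L every aneuploid mean was below the diploid. px5 had 414 FPKM in tetrasomy 3L+trisomy 5L (1 plant), 412 FPKM in trisomy 3L+trisomy 5L, 358 FPKM in trisomy 3L+monosomy 5L and 319 FPKM in monosomy 3L+monosomy 5L, against 476 FPKM in the diploid. These 4 levels were high among all combinations, since 8 of the 29 combinations of other pairs reached the lowest of them. The ratios of 0.670 to 0.871 rest on the highest diploid mean of the series.

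By type, and over the pairs with 6L not varied, the ratio ran from 0.619 to 1.25 in the 6 double trisomies (geometric mean 0.809), from 0.670 to 1.43 in the 3 double monosomies (0.865) and from 0.703 to 2.31 where 1 arm was trisomic and the other monosomic (10 combinations, 1.24). The types overlapped, and no test was made between them.

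With 3 copies against 1 copy of an arm and the other arm fixed, px5 was lower with 3 copies in 9 of the 15 contrasts in which 6L was not varied. For 4L, in all pairs together, it was lower in 4 of 5 contrasts, for 5L in 3 of 5, for 3L in 2 of 4 and for 9S in 2 of 2. The counts were the same after dividing by the median of genes outside the varied arms. A combination can enter 2 contrasts, so the contrasts are not independent, and they carry no test.

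px5 moved farther from its diploid when 6L was varied. The size of its log2 ratio, whatever its sign, averaged 0.91 over the 3 pairs with 6L varied and 0.50 over the 6 pairs without, a difference of 0.42. The pairs with 6L varied stood at 1.12 (4L+6L), 0.86 (5L+6L) and 0.76 (6L+9S). Those without ran from 0.35 (3L+5L) to 0.72 (3L+4L), so the sets did not overlap. A two-sided exact permutation over the 9 pairs gave p = 0.0119, the smallest that its 84 choices allow (adjusted p = 0.0476). The adjusted p stayed under 0.05 in 3 of 15 alternatives. It was 0.0833 after dividing by the median of genes outside the varied arms and also without the 3 combinations of 1 plant, where the difference was 0.28, and 0.0714 to 0.0833 with any 1 pair left out. The ratio with its sign did not differ beyond the spread (difference 0.11, exact permutation p = 0.512). It averages gains and losses of 6L within a pair, which can offset each other, so it cannot decide on the size of the change.

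A ratio of 2 or more, or of 0.5 or less, was reached in 7 of the 33 combinations, and 5 of these were higher and 2 lower. Over all genes with a summed value of at least 1 FPKM in a comparison, pooled over the 33 comparisons, 8.74% were past 2-fold higher and 8.02% past 2-fold lower. With 6L varied, px5 was 5.14-fold in trisomy 4L+tetrasomy 6L, where 15.1% of genes were past 2-fold higher, 2.50-fold in trisomy 6L+monosomy 9S (10.4%) and 2.42-fold in monosomy 5L+trisomy 6L (10.9%). It was 0.393-fold in trisomy 4L+monosomy 6L, where 9.61% of genes were past 2-fold lower, and 0.425-fold in trisomy 5L+monosomy 6L (5.16%, 2 plants). With 6L not varied, it was 2.31-fold in monosomy 4L+trisomy 5L (8.3% of genes past 2-fold higher) and 2.13-fold in monosomy 3L+trisomy 4L (14.5%). Each of these was a group of 2 plants, and the tetrasomy was 1 plant.

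How far px5 stood out from the genes that share its dosage depended on which of them were counted. Among those with a summed value of at least 1 FPKM, its ratio lay between the 10th and 90th percentiles of the 6L genes in 8 of the 12 combinations with 6L varied. It stood above that range in monosomy 6L+monosomy 9S (percentile 96.5), trisomy 4L+tetrasomy 6L (90.7) and monosomy 4L+monosomy 6L (90.2), and below it in trisomy 5L+trisomy 6L (7.72). Among the genes outside the varied arms it was inside in 18 of the other 21, and outside in monosomy 4L+trisomy 5L (94.6), trisomy 1S+trisomy 9L (9.31) and trisomy 4L+trisomy 5L (5.57). By construction, 10% of the comparison genes lie below this range and 10% above it in each combination, so 7 of 33 is near the combined share. These 7 became 10 when both means had to be above 0.5 FPKM, 11 when they had to sum to at least 10 FPKM and 0 with no minimum. Another comparison took only abundant genes, with a diploid mean of at least 50 FPKM, a floor below every diploid mean of px5. These were 135 to 138 genes on 6L and 1697 to 2056 outside the varied arms. The floor was set on the diploid mean alone, the denominator of each ratio. The median ratio outside the varied arms was then lower in each of the 21 combinations, as in monosomy 3L+monosomy 4L (0.879 against 1.08). For the 6L genes it was lower in most, but higher in monosomy 4L+monosomy 6L (0.590 against 0.571) and trisomy 6L+trisomy 9S (1.37 against 1.35). How far this floor shaped the count and the percentiles was not tested. Against these abundant genes px5 was outside in 14 combinations, 6 of the 12 with 6L varied and 8 of the other 21. px5 then stood highest in monosomy 4L+trisomy 5L (percentile 99.1), monosomy 6L+monosomy 9S (98.2) and trisomy 3L+monosomy 4L (97.4), and lowest in trisomy 5L+trisomy 6L (4.81).

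**Figure D4:**
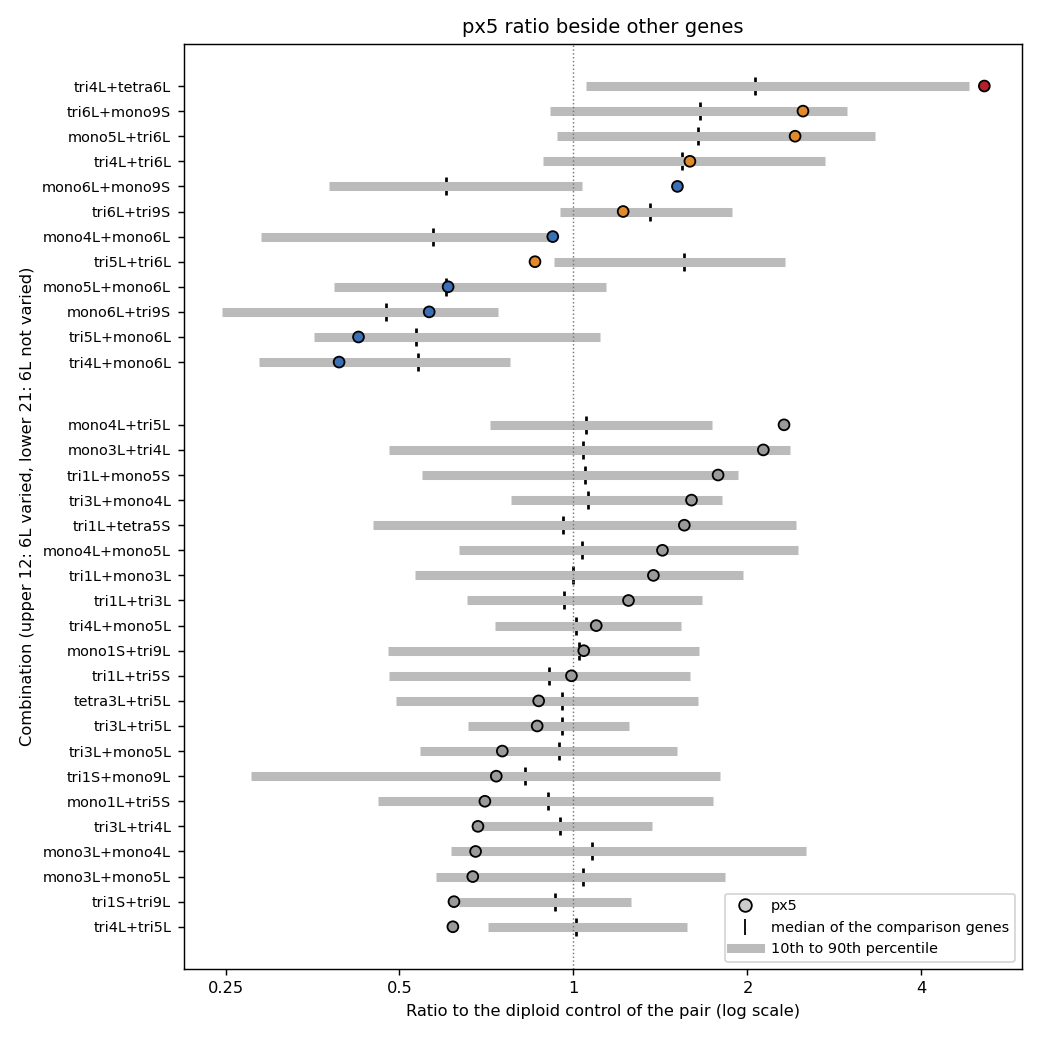
Circles give the ratio of px5 to the diploid of its pair on a log axis for each of the 33 combinations, ticks the median and gray bars the 10th to 90th percentile of the comparison genes, which are the 6L genes in the upper 12 rows and the genes outside the varied arms in the lower 21, with a summed value of at least 1 FPKM. px5 lies outside the bar in 4 of the upper 12 and 3 of the lower 21 combinations. By construction, 10% of the comparison genes lie on each side of a bar.

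The spread of px5 was on the wide side for leaf genes. The SD of its log2 ratio was 0.82 over the 33 comparisons, at percentile 90.1 of 14944 genes with at least 1 FPKM in every group mean, whose median SD was 0.48. It was 0.61 over the 21 comparisons with 6L not varied, at percentile 72.5. Droplet digital PCR assays for 10 genes, px5 among them, were also part of the work, and their results were not analysed here. Its SD over the 33 comparisons was the highest of the 10, and those of the other 9 ran from 0.25 to 0.71. Over the 21 with 6L not varied it ranked 4. The 33 comparisons include changes in the copies of px5 itself, and the 21 do not. The genes ranked above px5 over the 21 lie on chromosomes 1, 3 and 5, which have varied arms there. The ratios of those 9 genes ran from 0.191 to 2.62.

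The diploid means of px5 were not level either. The highest, 476 FPKM in 3L+5L, was 2.55 times the median of the other 8 diploid means, which ran from 132 FPKM in 4L+6L to 210 FPKM in 1L+5S. The excess in 3L+5L was at percentile 98.3 of 14944 genes. The highest and lowest diploid means differed 3.61-fold, and 1.59-fold without 3L+5L. For the other 9 assay genes the highest diploid mean was 1.37 to 3.10 times the lowest.

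Leaf collection notes record the mid-rib in the sample for at least 1 plant of 6 combinations, all with 6L not varied. The ratio of px5 ran from 0.670 to 2.13 in these 6 (median 1.06) and from 0.619 to 2.31 in the other 15 (median 0.992), so the sets overlapped. Within pairs the log2 difference was 0.16, and a two-sided exact permutation over 576 arrangements gave p = 0.589 (adjusted p = 0.589). The direction turned when 3L+4L was left out (-0.11).

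The genes most like px5 were sought by the Pearson correlation of log2 ratios, among 14943 other genes with at least 1 FPKM in every group mean. The comparisons of a pair share their diploid control, so these values describe likeness only. Over the 33 comparisons the highest were Zm00004b030740 (r = 0.80) and Zm00004b030679 (r = 0.79), both in 6L, and the lowest Zm00004b006320 on chromosome 2 (r = -0.80) and Zm00004b002338 on chromosome 1 (r = -0.80). The middle 90% of genes is bounded by -0.40 and 0.53. Over the 21 comparisons with 6L not varied the highest were Zm00004b006782 on chromosome 2 (r = 0.86) and Zm00004b034791 on chromosome 7 (r = 0.84). The lowest were again Zm00004b002338 (r = -0.74) and, on chromosome 9, Zm00004b031993 (r = -0.74). Some of these genes came near the floor of 1 FPKM in their lowest combination. Zm00004b034791 fell to 1.61 FPKM, Zm00004b002338 to 2.00 FPKM and Zm00004b031993 to 2.24 FPKM. The leading gene changed with the set of comparisons, and the files pair none of these identifiers with a name.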

How the data were processed

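Per the labels and the study's methods, the authors cleaned reads with fastp, set organelle reads aside, mapped what was left to the W22 and B chromosome genomes with STAR and ran Cuffdiff for each of the 9 pairs of arms. Tool versions were not given in the sources used here. The deposited FPKM values are the authors' means per group, 42 in all. Columns with the authors' fold changes, test statistics, p-values and q-values were not used. One locus without identifier was dropped per comparison. Depth is unknown.

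Groups were taken from the sample titles. Ratios are a combination over the diploid of its pair, with no pseudocount. Ends of varied arms were found by a least-squares change point in log2 ratios, over genes summing to at least 10 FPKM and limited to ±2. Genes outside both arms on chromosomes 1 to 10 served as the trans set, with sums of at least 1 FPKM. All p-values came from two-sided exact permutations over group means, checked on short lists of values with a known answer. The search for arm ends was checked on simulated data. Python 3.11.15 was used (numpy 2.4.6, pandas 2.3.3). The named genes were px5, its nearest expressed neighbors and the 2 most and least correlated genes over each set of comparisons. The gene and all lists were chosen with earlier results of these data known. Alternatives were another scaling, pseudocounts of 0.1 and 1 FPKM, other filters and each pair left out. The 2-fold rule, its 1.5-fold version, the comparison with genes at a diploid mean of at least 50 FPKM, the 4L+6L pair alone and the diploids without 3L+5L were added after seeing the data.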

Additional observations from a re-analysis of the deposited data

Results flagged for a closer look

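The diploid mean of px5 in 3L+5L, 476 FPKM, stood apart from the other 8 diploid means, with a gap to the next of 64% of the whole log2 range. The gap is past the 95% limit for 9 values, a limit that chance passes in about 1 in 20 groups. Both ends of several groups of px5 ratios were examined in the same way, and none passed its limit.

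In 3L+4L the effect of 4L on px5 had opposite signs at 3 and at 1 copies of 3L (log2 differences of trisomic minus monosomic 4L of -1.23 and 1.65), and so had the effect of 3L at 3 and at 1 copies of 4L (-1.64 and 1.24). The difference between the effects was -2.88 on the log2 scale for both arms and was not tested, since each effect is a difference of 2 group means. The mean of monosomy 3L+trisomy 4L, which enters it for both arms, came from 2 plants, 1 with the mid-rib noted.

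In 4L+5L the effect of 5L had opposite signs at 3 and at 1 copies of 4L (-0.82 and 0.70). The difference between them was -1.52 and was likewise not tested. Both means with trisomic 5L came from 2 plants each.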

How the results depend on the processing

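No paired analysis was possible because the deposited columns hold group means and carry no replicates, and for the same reason no single plant could be left out. The 6L dosage difference kept its direction under all 10 alternatives. Its adjusted p passed 0.05 with the tetrasomy counted among the trisomies (1.56) and without strata for the pairs (1.27), and did not in the other 8. Leaving out each pair gave 1.16 to 1.45. The larger change with 6L varied kept its direction under 15 alternatives, but its adjusted p no longer passed after scaling by the trans median (0.46), without single-plant combinations (0.28), with signed ratios (0.11) or with any pair left out (0.31 to 0.50). Signed ratios average gains and losses of 6L, which can offset each other. The second-arm difference ran from -1.23 to -0.97 over all alternatives. The mid-rib difference turned to -0.22 when only combinations noted for all plants were counted, and ran from -0.11 to 0.27 with each pair left out (4L+5L has no such combination). Combinations with px5 outside the 10th to 90th percentile, a range that leaves 10% of genes on each side, numbered 7. They numbered 0 with no filter, 10 with both means above 0.5 FPKM and 11 with a sum of at least 10 FPKM. Against genes with a diploid mean of at least 50 FPKM, a floor on the denominator of the ratio alone, they numbered 14. Combinations past the fold threshold numbered 7, and 16 at 1.5-fold. The diploid range was 3.61-fold, and 1.59-fold without 3L+5L. Of the 20 genes most like px5 over the 21 comparisons, 5 remained with at least 5 FPKM.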
